A study of Mus musculus with 6 samples.

Results

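Transcripts of 9 genes that supply or use glutamine, glutamate and 2-oxoglutarate were followed in splenic erythroid cells of mice with sickle cell disease that lacked or carried Nrf2. The 9 genes are Gls2, Glul, Glud1, Got1, Got2, Gpt2, Bcat1, Bcat2 and the carrier gene Slc25a11. They were chosen by name, with earlier results of these data known. All 9 were found among the 35178 gene symbols of the deposited count table. RNA came from Ter119-positive spleen cells, Ter119 being a surface marker of erythroid cells. The KO group held 3 libraries from Nrf2 knockout animals and the WT group held 3 libraries from animals wild type for Nrf2. Both groups had sickle cell disease, were 2 to 3 months old and were on a mixed B6;129P2 background. The labels name neither the sickle alleles, nor the deleted part of Nrf2, nor the sex of the animals. They also do not say that the libraries came from separate animals. The p-values thus set the difference between the groups against the spread of these libraries, which may be technical.

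Glutamate and 2-oxoglutarate are interconverted at the crossroads of amino acid metabolism and the citric acid cycle. Glutaminase frees glutamate from glutamine, glutamine synthetase runs the opposite reaction, and glutamate dehydrogenase and the transaminases move the amino group that separates glutamate from 2-oxoglutarate. In erythroid cells 2-oxoglutarate is a source of the succinyl-CoA used for heme, and it is also the molecule that lactate and malate dehydrogenases can reduce to L-2-hydroxyglutarate, the metabolite named in the title of the study.

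Libraries held 16364199 to 21712608 reads assigned to gene symbols. Levels are given as CPM, the read counts set to a common library size, with TMM factors (trimmed mean of M values) that even out the libraries' composition. Nqo1, a classical Nrf2 target, had 11.5, 14.1 and 18.2 CPM in KO replicates 1, 2 and 3, against 50.7, 53.8 and 81.5 CPM in WT replicates 1, 2 and 3. Nfe2l2 itself, which encodes Nrf2, kept reads in every KO library (63.4 to 76.8 CPM, against 71.0 to 98.7 CPM in WT). Such reads may come from outside the deleted part and do not test the label. The KO libraries differed in transcripts of the sex chromosomes. Xist was at 15.8, 0.702 and 917 CPM on library totals in KO replicates 1, 2 and 3 and at 784 to 1169 CPM in WT, and chromosome Y genes summed to 212, 271 and 4.64 CPM in the KO libraries and to at most 0.289 CPM in WT. Each tested member's change for KO replicate 3 alone against WT is therefore given with its results, as is the median change of the other pathway genes. Of 12 erythroid marker genes, 10 were lower in every KO library than in every WT library, as were 7.91% of all genes tested. Their summed level was 32518 to 33991 CPM in KO and 43590 to 45269 CPM in WT, so that all libraries carried erythroid transcripts at a high level. The 10 macrophage markers summed to 1460 to 1785 CPM in KO and 1329 to 1490 CPM in WT, and none was at 0 over the libraries. Of these, 1 of 10 (Emr1) was higher in every KO library than in every WT library, as were 10.3% of all genes tested. Cd163 alone of this list had a lower mean in KO (29.2 CPM, against 41.4 CPM in WT), with overlap. Neither B cell markers (26.5 to 88.4 CPM in KO, 44.0 to 212 CPM in WT) nor early progenitor markers (108 to 129 CPM in KO, 103 to 131 CPM in WT) separated the groups in their sums. The same held for the sums of the markers of T and NK cells (31.2 to 49.7 CPM in KO, 32.5 to 43.5 CPM in WT), neutrophils (497 to 659 CPM in KO, 330 to 1003 CPM in WT), platelets (161 to 197 CPM in KO, 151 to 352 CPM in WT) and stroma with endothelium (316 to 491 CPM in KO, 379 to 535 CPM in WT). In these lists single genes were lower in every KO library than in every WT library: Gp9 of platelets (20.7 CPM in KO, 31.7 CPM in WT), Meis1 of early progenitors (3.01 CPM in KO, 4.26 CPM in WT) and Cxcl12 of stroma (94.2 CPM in KO, 144 CPM in WT). The part of these marker levels and of sex in the results that follow was not tested.

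None of the 9 genes passed the test of KO against WT, and the mitochondrial aspartate transaminase Got2 came nearest. Of the 9, 8 passed the filter on low counts and were tested, and Bcat1 did not. By edgeR's quasi-likelihood test, with p adjusted over all 13721 genes tested (Benjamini-Hochberg), 0 of 8 had an adjusted p under 0.05, where 0.0219% of all genes did. At an unadjusted p under 0.05 there were 2 of 8 that were higher in KO, Got2 and Gls2, and 0 that were lower, against 6.25% and 5.98% of all genes. DESeq2 called 6.07% of the genes it gave an adjusted p, limma-voom called 0%, and both called 0 of the members. DESeq2 gave no adjusted p for Gls2, Got1 and Gpt2 and so could not call them. Each method had 2 members at an unadjusted p under 0.05, beside 1640 of 13712 genes by DESeq2 and 1681 of 13721 by limma-voom. The median log2 change of the 8 was 0.12, beside 0.02 over all genes, and 6 of 8 estimates were above 0 with TMM scaling, 5 with DESeq2 size factors, 4 with upper-quartile scaling and 7 with library totals. With library totals the median over all genes was 0.15 and that over the members 0.25. The members' median relative to all genes was 0.10 under each of these scalings. Without KO replicate 1 the median of the members was 0.05. In bulk libraries fewer cells of a type and less RNA per cell cannot be told apart.

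**Figure D1:**
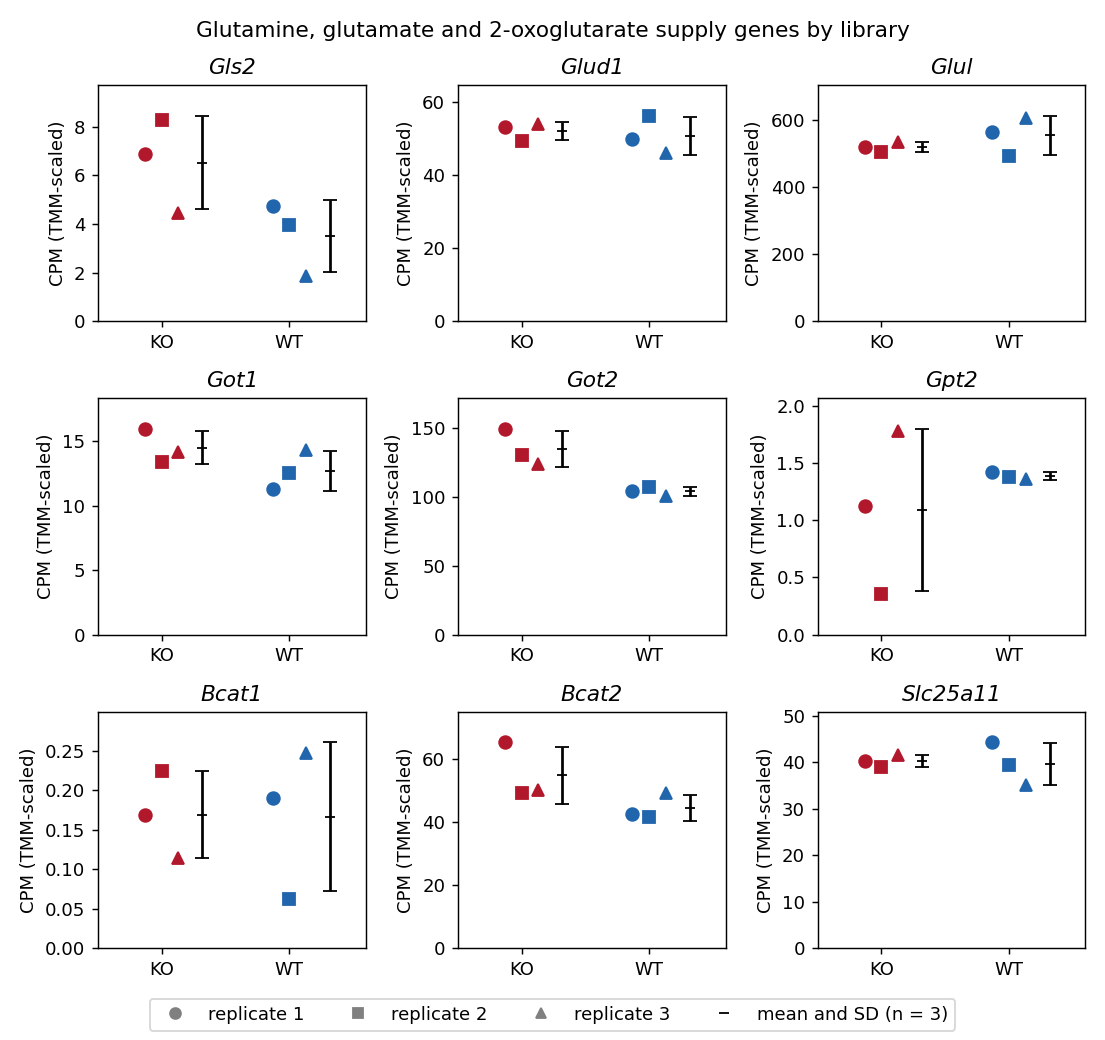
CPM (TMM-scaled, linear axes from 0) of the 9 genes in each KO and WT library, with symbols for the replicate number and bars for the mean and SD of 3 libraries. Got2 is the gene whose KO libraries (124 to 149.5 CPM) all sit above its WT libraries (101 to 107 CPM).

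Glutamine is split by glutaminase and rebuilt by glutamine synthetase. Gls2, the liver-type mitochondrial glutaminase, lies on chromosome 10 from 128194457 to 128210004 (mm10, plus strand). It had 6.86, 8.27 and 4.47 CPM in KO replicates 1, 2 and 3, against 4.75, 3.95 and 1.85 CPM in WT replicates 1, 2 and 3. The groups met where KO replicate 3 lay just under WT replicate 1, and WT replicate 3 stood well under the rest. These levels rest on 78 to 184 reads per KO library and 30 to 100 per WT library. The fitted change was the highest of the 8 tested, at a log2 of 0.89 (SE 0.373, 95% interval 0.07 to 1.71, adjusted p = 0.376 by edgeR). Leaving out WT replicate 3 gave 0.59, and KO replicate 3 alone against WT gave 0.34 (SE 0.497).

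Glul, the glutamine synthetase that joins ammonia to glutamate in the cytosol, lies on chromosome 1 from 153899944 to 153909723 (plus strand). It had 519, 503 and 533 CPM in KO replicates 1, 2 and 3, against 563, 490.5 and 606 CPM in WT replicates 1, 2 and 3. The KO libraries lay inside the range of the WT libraries, which spread more widely (SD 15.1 CPM in KO and 58.4 CPM in WT, n = 3 each). The log2 change was -0.09 (SE 0.110, adjusted p = 0.794 by edgeR), or 0.04 by library totals, and its 95% interval ran from -0.33 to 0.15. Teddm2, on the opposite strand, shares 116 exonic bases with Glul and was not analysed here. KO replicate 3 alone against WT gave -0.05 (SE 0.167).

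Glud1, the mitochondrial glutamate dehydrogenase that releases ammonia from glutamate to give 2-oxoglutarate, lies on chromosome 14 from 34310727 to 34345265 (plus strand). It had 53.0, 49.2 and 53.9 CPM in KO replicates 1, 2 and 3, against 49.8, 56.1 and 45.9 CPM in WT replicates 1, 2 and 3. The KO values lay within the WT range. The log2 change was 0.04 (SE 0.117, adjusted p = 0.930 by edgeR), with a 95% interval of -0.22 to 0.30. Its sign was reversed with upper-quartile scaling (-0.0033) and without WT replicate 3 (-0.03), and KO replicate 3 alone against WT gave 0.09 (SE 0.180).

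The transaminases pass the amino group of an amino acid to 2-oxoglutarate, or take it back from glutamate. Got2, the mitochondrial aspartate transaminase and a part of the malate-aspartate shuttle, lies on chromosome 8 from 95864134 to 95888547 (minus strand). It had 149.5, 131 and 124 CPM in KO replicates 1, 2 and 3, against 105, 107 and 101 CPM in WT replicates 1, 2 and 3. Every KO library was above every WT library, which was so for 1 of the 8 tested members (12.5%) and for 10.3% of all genes. Got2 averaged 135 ± 13.2 CPM in KO and 104 ± 3.19 CPM in WT (SD, n = 3 each), a fold of 1.29. Its log2 change was 0.37 (SE 0.105, 95% interval 0.14 to 0.60), and edgeR gave an adjusted p of 0.202. The exact permutation test (two-sided) gave p = 0.1, the smallest that 3 libraries against 3 allow. Across the alternatives, the adjusted p by the models across all genes ran from 0.0723 with library totals to 0.699 for KO replicate 3 alone. KO replicate 1 was the highest library, and without it the log2 change was 0.26. For KO replicate 3 alone against WT it was 0.25 (SE 0.154) and for KO replicates 1 and 2 it was 0.42 (SE 0.122). The difference between these KO libraries was 0.17 (SE 0.166, adjusted p = 0.999 by edgeR). The pseudogene Got2-ps1 held 5 reads over the 6 libraries, and Gm45760, an annotated locus on the opposite strand that shares 434 exonic bases with Got2, was not analysed here.

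Got1, the cytosolic aspartate transaminase, lies on chromosome 19 from 43499752 to 43524605 (minus strand). It had 15.9, 13.4 and 14.2 CPM in KO replicates 1, 2 and 3, against 11.2, 12.5 and 14.3 CPM in WT replicates 1, 2 and 3. WT replicate 3 stood above KO replicates 2 and 3, so the groups overlapped. The log2 change was 0.19 (SE 0.173, 95% interval -0.19 to 0.57, adjusted p = 0.713 by edgeR), and KO replicate 3 alone against WT gave 0.16 (SE 0.260). The ratio of Got2 to Got1 reads was 9.39, 9.77 and 8.77 in the KO libraries, against 9.32, 8.60 and 7.08 in the WT libraries. Those ranges overlapped too, so that a different change of the mitochondrial and the cytosolic enzyme was not detectable here.

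Bcat2, the mitochondrial transaminase of leucine, isoleucine and valine, lies on chromosome 7 from 45570153 to 45589711 (plus strand). It had 65.4, 49.2 and 50.3 CPM in KO replicates 1, 2 and 3, against 42.6, 41.8 and 49.2 CPM in WT replicates 1, 2 and 3. KO replicate 1 was well above the rest, while KO replicate 2 and WT replicate 3 were almost equal. The log2 change was 0.30 (SE 0.139, 95% interval -0.00094 to 0.61, adjusted p = 0.409 by edgeR). Leaving out KO replicate 1 gave 0.14, and KO replicate 3 alone against WT gave 0.18 (SE 0.203). An antisense gene, 0610005C13Rik, shares 622 exonic bases with Bcat2 but held only 22 reads over the 6 libraries.

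Bcat1, the cytosolic form of the same enzyme, was close to undetected. The gene lies on chromosome 6 from 144993835 to 145076184 (minus strand). It had 3, 5 and 2 reads in KO replicates 1, 2 and 3 and 4, 1 and 4 reads in WT replicates 1, 2 and 3, and was not tested. Gpt2, the mitochondrial alanine transaminase, on chromosome 8 from 85492576 to 85527560 (plus strand), was also low. It had 20, 8 and 31 reads in KO replicates 1, 2 and 3, against 30, 22 and 22 reads in WT replicates 1, 2 and 3. In CPM this was 1.12, 0.359 and 1.78 in the KO libraries, against 1.42, 1.38 and 1.36 in the WT libraries. The WT libraries were close together and the KO libraries lay on both sides of them. The log2 change of -0.37 (SE 0.575, adjusted p = 0.856 by edgeR) had a 95% interval of -1.63 to 0.90, and leaving out KO replicate 2 gave 0.05, so no direction can be given. KO replicate 3 alone against WT gave 0.35.

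Slc25a11, the carrier that exchanges 2-oxoglutarate for malate across the inner mitochondrial membrane, lies on chromosome 11 from 70644196 to 70647479 (minus strand). It had 40.2, 39.0 and 41.5 CPM in KO replicates 1, 2 and 3, against 44.3, 39.5 and 35.1 CPM in WT replicates 1, 2 and 3. All KO values lay within the WT range. The log2 change was 0.02 (SE 0.125, adjusted p = 0.966 by edgeR), with a 95% interval of -0.25 to 0.30, and it was below 0 under 7 of 17 alternatives. KO replicate 3 alone against WT gave 0.07 (SE 0.192). The gene shares 189 exonic bases with Rnf167 on the opposite strand, which held 18170 reads over the 6 libraries. The library kit does not mark strand, so reads of the shared stretch cannot be told apart. Gls2 likewise shares 97 exonic bases with Spryd4, which held 1146 reads.

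**Figure D2:**
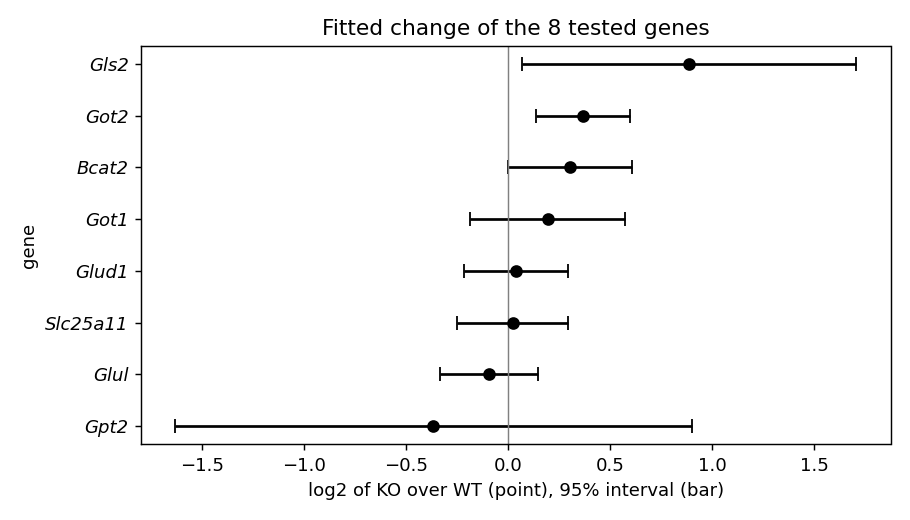
Fitted log2 change of KO over WT (points) with its 95% interval (bars) for the 8 tested genes, ordered by size. The intervals of Got2 (0.14 to 0.60) and Gls2 (0.07 to 1.71) lie above 0 before adjustment for 13721 genes, and the other 6 include 0.

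Levels of different genes were compared per kilobase of exonic sequence in GENCODE M21. Glul was the most abundant by far, at 151 to 160.3 CPM per kb in KO and 148 to 182 CPM per kb in WT. It made up 64.0%, 66.1% and 67.2% of the summed CPM per kb of the 9 genes in KO replicates 1, 2 and 3, against 70.3%, 67.5% and 73.0% in WT replicates 1, 2 and 3. The share was thus lower in every KO library than in every WT library, by as little as 0.242 percentage points between the nearest libraries. It also falls where other members are higher, and the level of Glul itself overlapped between the groups. Got2 came next, at 25.7 to 31.0 CPM per kb in KO and 20.9 to 22.3 CPM per kb in WT, followed by Slc25a11 at 18.4 to 19.6 CPM per kb in KO and 16.5 to 20.9 CPM per kb in WT. Bcat2 (12.6 to 16.8 CPM per kb in KO, 10.7 to 12.6 in WT) and Glud1 (11.7 to 12.8 CPM per kb in KO, 10.9 to 13.3 in WT) overlapped in both groups and have no order. Got1 stood at 5.27 to 6.27 CPM per kb in KO and 4.43 to 5.62 in WT, and Gls2 at 1.29 to 2.38 CPM per kb in KO and 0.533 to 1.37 in WT. Gpt2 and Bcat1 were at 0.315 CPM per kb or less in every library. Per length, the mitochondrial transaminases Got2 and Bcat2 thus exceeded their cytosolic counterparts Got1 and Bcat1 in all 6 libraries.

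**Figure D3:**
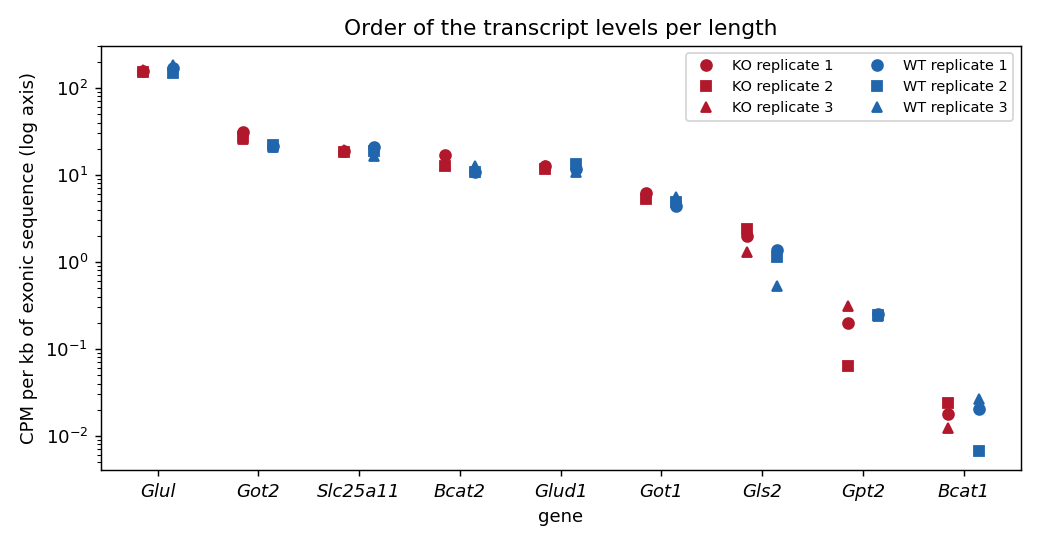
CPM per kilobase of exonic sequence (log axis) of the 9 genes in each library, ordered by the KO mean. Glul stands at 148 to 182 CPM per kb, and Bcat1, at the other end, at 0.0265 CPM per kb or less.

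Ratios between members within a library do not depend on the scaling between libraries. After the values had been seen, 8 such ratios were formed, which share members and are not independent. The ratio of Got2 to Slc25a11 reads was 3.72, 3.35 and 2.99 in KO replicates 1, 2 and 3, against 2.37, 2.72 and 2.88 in WT replicates 1, 2 and 3. The ratio of Got2 to Glud1 was 2.82, 2.66 and 2.30 in the KO libraries, against 2.10, 1.91 and 2.20 in the WT libraries. For Bcat2 to Glul it was 0.126, 0.0979 and 0.0944 in the KO libraries, against 0.0756, 0.0852 and 0.0812 in the WT libraries. All 3 were higher in every KO library than in every WT library, by a mean log2 difference of 0.34, 0.32 and 0.38. For each, the exact permutation test (two-sided) gave p = 0.1, the smallest possible, and 0.267 after adjustment over the 8 ratios. As the genes of each ratio were picked with their values known, these p-values cannot serve as support for a difference. The other 5 overlapped, among them Gls2 to Glul, the glutamine-splitting over the glutamine-making enzyme, at 0.0132, 0.0164 and 0.00839 in the KO libraries, against 0.00843, 0.00806 and 0.00306 in the WT libraries.

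**Figure D4:**
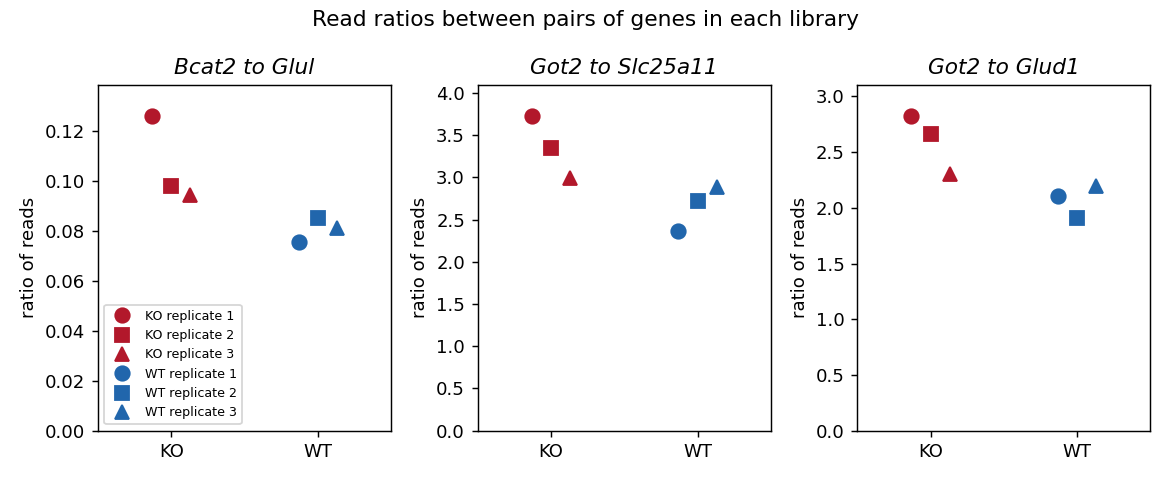
Ratio of reads (linear axes from 0) of Bcat2 to Glul, Got2 to Slc25a11 and Got2 to Glud1 in each KO and WT library. In each panel the lowest KO library lies above the highest WT library, most narrowly for Got2 to Slc25a11 (2.99 against 2.88).

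The surrounding pathway was described with 8 gene lists that hold 72 further genes, of which 65 were tested. None of the 65 passed the test over all genes by edgeR; 12 (18.5%) were higher and 3 (4.62%) lower in KO at an unadjusted p under 0.05, beside 6.25% and 5.98% of all genes. The counts by list that follow are to be read against these shares. Every KO library was above every WT library for 18 of the 65 genes (27.7%, beside 10.3% of all genes) and below for 6 (9.23%, beside 7.91% of all genes). Their median log2 change was 0.18, beside 0.02 over all genes. For KO replicate 3 alone against WT, a setting added after the data were seen, the median of the 65 was 0.08, beside 0.03 over all genes. The shares above hold for the KO libraries together and are not given for KO replicate 3 alone. The lists were chosen with earlier results of these data known, and such a choice can by itself raise the shares above. These values describe the lists and were not tested as groups.

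Besides Got1, Got2 and Slc25a11, the malate-aspartate shuttle uses the malate dehydrogenases Mdh1 and Mdh2 and the aspartate-glutamate carriers Slc25a12 and Slc25a13. The summed level of these 7 genes was 646, 591 and 588 CPM in KO replicates 1, 2 and 3. It was 542, 522 and 510.4 CPM in WT replicates 1, 2 and 3, with no overlap. Such a separation was not particular to the shuttle. Among the gene lists, only the sums of the mitochondrial carriers overlapped (310 to 320 CPM in KO, 313 to 351 CPM in WT). Got2, Mdh1 (94.7 ± 4.69 CPM in KO, 83.5 ± 3.60 CPM in WT), Mdh2 and Slc25a12 (67.6 ± 5.44 CPM in KO, 58.8 ± 4.68 CPM in WT) had every KO library above every WT library. Slc25a13 had a log2 change of 0.71 (SE 0.269, adjusted p = 0.327 by edgeR) at 9.32 ± 2.67 CPM in KO and 5.70 ± 0.986 CPM in WT, with overlap. Of 8 mitochondrial carriers, 1 was higher and 1 lower at an unadjusted p under 0.05: beside Slc25a13, Slc25a21, a carrier of 2-oxoadipate and 2-oxoglutarate, was at 85.0 ± 2.20 CPM in KO and 107 ± 14.0 CPM in WT (log2 -0.34). Slc25a44, a carrier of branched-chain amino acids, was at 66.4 ± 3.41 CPM in KO and 78.7 ± 9.31 CPM in WT.

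Other transaminases that draw on the same pool were measured as well. Psat1, which makes phosphoserine with glutamate as donor, had 44.4 ± 3.65 CPM in KO and 26.9 ± 2.40 CPM in WT (log2 0.72, SE 0.129, adjusted p = 0.0864 by edgeR). The ornithine transaminase Oat had 110 ± 5.62 CPM in KO and 93.7 ± 1.20 CPM in WT (log2 0.23, adjusted p = 0.382 by edgeR). Of the 6 tested in this list, 2 were higher and 0 lower at an unadjusted p under 0.05; Abat (log2 -0.27) and the cytosolic alanine transaminase Gpt (log2 -0.28) overlapped between the groups, and Aadat had no read in any library. Enzymes that link glutamate to proline had 3 of 7 higher and 0 lower by the same measure: besides Oat, the pyrroline-carboxylate synthase Aldh18a1 (78.3 ± 2.72 CPM in KO, 61.1 ± 10.3 CPM in WT) and Aldh4a1 (9.56 ± 0.415 CPM in KO, 6.75 ± 1.30 CPM in WT). The proline dehydrogenase Prodh had every KO library below every WT library, at 2.29 ± 0.145 CPM in KO and 3.62 ± 1.25 CPM in WT.

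Among enzymes that spend glutamine or glutamate, 4 of 13 were higher and 0 lower at an unadjusted p under 0.05, with a median log2 change of 0.26. The asparagine synthetase Asns had 205 ± 28.4 CPM in KO and 134 ± 25.3 CPM in WT (log2 0.62, SE 0.153, adjusted p = 0.163 by edgeR). Cad, which starts pyrimidine synthesis from glutamine, had 126 ± 5.30 CPM in KO and 87.4 ± 14.9 CPM in WT (log2 0.52, SE 0.127, adjusted p = 0.157 by edgeR). The tRNA synthetase Eprs, which charges glutamate and proline, and Ppat, which starts purine synthesis from glutamine, had log2 changes of 0.37 and 0.35. In all 4 every KO library was above every WT library, as it was for 10.3% of all genes. The list summed to 907 to 1012 CPM in KO and 731 to 826 CPM in WT.

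Plasma membrane carriers pointed both ways, with 1 of 9 higher and 2 of 9 lower at an unadjusted p under 0.05. Slc38a1, a glutamine importer, had 52.3 ± 1.66 CPM in KO and 41.4 ± 2.33 CPM in WT. Slc38a5, another glutamine carrier, had 239.5 ± 11.95 CPM in KO and 310.2 ± 12.5 CPM in WT, and Slc3a2, the heavy chain of several amino acid exchangers, had 314 ± 67.7 CPM in KO and 485 ± 66.9 CPM in WT. The glutamine carrier Slc1a5 had 764 ± 70.6 CPM in KO and 993 ± 285 CPM in WT (log2 -0.38), with overlap. The 10 carriers together summed to 1903 to 2183 CPM in KO and 2390 to 2798 CPM in WT, without overlap. This sum is set mostly by the abundant carriers, and the median log2 change of the 9 tested was 0.11.

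Downstream of Bcat2, 0 of 13 genes of branched-chain keto acid degradation had an unadjusted p under 0.05. Their median log2 change was 0.14. Auh, an enzyme of leucine breakdown, had 50.1 ± 3.95 CPM in KO and 59.3 ± 4.18 CPM in WT, and the kinase Bckdk, which switches the keto acid dehydrogenase off, had 68.9 ± 6.13 CPM in KO and 61.0 ± 2.04 CPM in WT. Hibch (log2 0.25) and Hibadh (log2 0.22), of valine breakdown, were the other genes of this list with the smallest p. Among the dehydrogenases that make or oxidise 2-oxoglutarate, 2 of 9 were higher and 0 lower by that measure. Idh3a had 88.7 ± 3.50 CPM in KO and 63.2 ± 8.88 CPM in WT (log2 0.49, SE 0.122, adjusted p = 0.163 by edgeR), and Idh2 had 43.0 ± 3.71 CPM in KO and 33.9 ± 0.496 CPM in WT (log2 0.34). Idh3b (log2 0.24) had every KO library above every WT library, and Ogdh, which oxidises 2-oxoglutarate, overlapped at 286 ± 26.2 CPM in KO and 320 ± 26.9 CPM in WT.

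**Figure D5:**
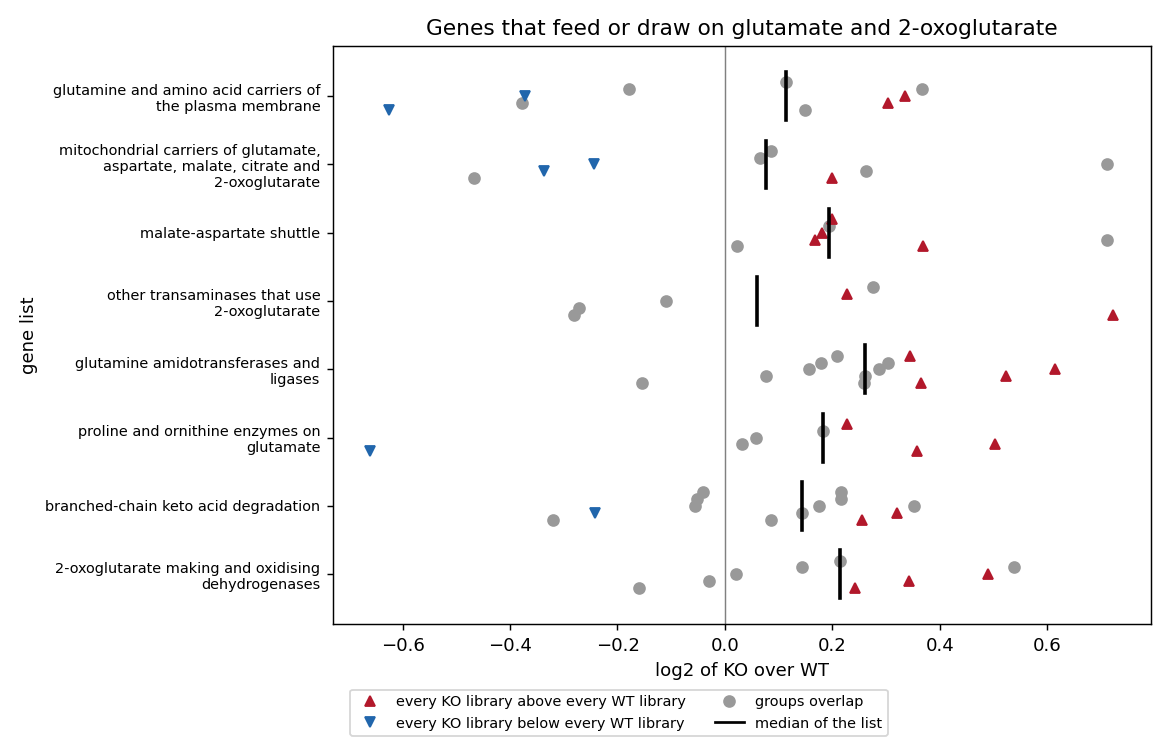
Log2 change of KO over WT of every tested gene in 8 lists around glutamate and 2-oxoglutarate (1 point per gene and list, vertical bars for list medians); up triangles mark genes with every KO library above every WT library, down triangles the opposite. The medians lie between 0.06 and 0.26, and none of the genes passed the test over all genes.

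Genes with a pattern like those of Got2 and Gls2, the members with the smallest p, were sought among 10799 other tested genes by the root mean square difference of log2 CPM around each gene's mean over the 6 libraries. Nearest to Got2 were Mbd3, a subunit of the NuRD chromatin complex (difference 0.028), Mpv17l2, a mitochondrial inner membrane protein (0.029), and Cct5, a subunit of the TRiC chaperonin (0.040). Mbd3 had 112, 95.3 and 94.7 CPM in KO replicates 1, 2 and 3, against 81.2, 80.03 and 76.1 CPM in WT replicates 1, 2 and 3, so KO replicate 1 was the highest library here as it was for Got2. Nearest to Gls2 were Plekha7 (0.167), Ttc37 (0.261) and Ms4a6d (0.264). Plekha7 and Ms4a6d were at low levels like Gls2, and Ttc37 was at 14.9 to 19.2 CPM in KO and 7.35 to 14.0 CPM in WT. These distances describe 6 libraries and carry no test.

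Promoter windows from RefSeq (GRCm38.p6, 250 bases before to 50 after a gene's start) were found for 8 of the 9 genes, the exception being Gls2. The core of the antioxidant response element through which Nrf2 binds, TGACNNNGC on either strand, was in none of the windows of these 8 genes. It was in 12.4% of all 32851 windows of the RefSeq table, and 14.0% of the 27025 genes there had it in any window. At such a share its absence from 8 genes says little. The sequence AGATAA, a single form of the GATA motif (11.2% of all windows, 12.7% of genes), had no match there either. The same held for the ATF4 element TGATGCAAT (0.192% of all windows, 0.222% of genes). Other forms of the GATA motif were not searched. These results say only that these letters are absent from these windows.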

How the data were processed

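The authors deposited whole-number read counts per gene symbol for 6 libraries. Per the submitters' processing notes, STAR 2.5, HTSeq, DESeq2 and mm10 were used, without their roles. Those notes give neither the annotation nor the strand setting, and per the labels' protocols the library kit was Illumina TruSeq version 2. Of 35275 lines, 27 had a date as name (0.340% to 0.383% of the reads) and were dropped, and 122 lines that shared 52 symbols were added up by symbol.

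All genes were fitted together with edgeR 4.0.16 in R 4.3.3 (filterByExpr, TMM, robust dispersions, quasi-likelihood test, KO over WT, no covariate); adjusted p under 0.05 was a call. With 3 libraries against 3, the exact permutation test of 1 gene cannot go below 0.1. Alternatives were other scalings, DESeq2 1.42.0, limma-voom (limma 3.58.1), other filters, single libraries left out, the replicate number as a block and subsets of the KO libraries. No 2 libraries agreed within sampling noise (chi-square per gene at least 23.9). The test was also run on simulated data, and the outcome is not reported here.

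The members and lists were chosen with earlier results of these data known. Named genes were the 9 members, up to 4 genes per pathway list with the smallest p, and Nfe2l2, Nqo1 and Xist. The 3 genes most like each of the 2 members with the smallest p were named as well. Mdh2, Rnf167, Spryd4, Got2-ps1, Gm45760, Teddm2, 0610005C13Rik, Emr1, Cd163, Gp9, Meis1, Cxcl12 and Aadat were named after their values were seen. Positions and exonic lengths came from GENCODE M21, on the same assembly.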

Additional observations from a re-analysis of the deposited data

How the results depend on the processing

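The number of members called was 0 under all 17 alternatives run. The number of genes called over the whole table, 3, was 10 with DESeq2 size factors, 8 with upper-quartile scaling, 33 with library totals, 397 by DESeq2, 0 by limma-voom (with 1681 at an unadjusted p under 0.05), 228 with no filter, 9 with a filter of 1 CPM in 3 libraries, 6 for KO replicate 3 alone, 12 for KO replicates 1 and 2, and 0 (edgeR without WT replicate 2, where 1338 genes had an unadjusted p under 0.05) to 14 (without KO replicate 3) when single libraries were left out. The cause was not tested. Same-numbered KO and WT libraries had deviations from their group means that correlated at r = 0.0985, 0.0438 and 0.031 over genes. Between differently numbered libraries r ran from -0.0804 to 0.0353. These values do not settle whether the replicate numbers pair the samples. With the replicate block, 9 genes and 0 members were called. Got2, Gls2, Bcat2 and Got1 were higher in KO under all 17 alternatives; without single libraries Got2 ran from 0.26 to 0.42, Gls2 from 0.59 to 1.17, Bcat2 from 0.14 to 0.38 and Got1 from 0.10 to 0.29 (log2). The sign was reversed for Glud1 with upper-quartile scaling (-0.0033) and, without single libraries, -0.025 at the lowest and 0.12 at the highest; for Glul with library totals (0.039); for Gpt2 for KO replicate 3 alone (0.35) and, without single libraries, -0.92 to 0.047; and for Slc25a11 with DESeq2 size factors (-0.00056), upper-quartile scaling (-0.022), DESeq2 (-0.0010), KO replicates 1 and 2 (-0.0018) and, without single libraries, -0.057 to 0.11. Without single libraries the mean log2 difference, an addition made after seeing the data, was 0.25 to 0.42 for Got2 to Slc25a11, 0.26 to 0.41 for Got2 to Glud1 and 0.25 to 0.46 for Bcat2 to Glul. DESeq2 gave no adjusted p for Gls2, Got1 and Gpt2, so it could not call them. The 1 to 5 reads of Bcat1 and the 8 to 31 of Gpt2 limit what can be said of these genes.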
